A study of Rattus norvegicus with 98 samples.

Results

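The mediodorsal thalamus (MDT) was compared with the lateral hypothalamus (LH) by the genomic positions that carry acetylated lysine 27 of histone H3 (H3K27ac). All libraries labelled with either region were taken, which gave 8 of the 94 libraries with a peak list, 4 from MDT and 4 from LH. Each region had 2 libraries from Sham rats, which drank water, and 2 from rats that drank fluoxetine (FT) for 6 weeks, at a daily dose of 18 mg for each kg of body weight. The animals were male Long-Evans rats, 2 months old when treatment began. Regions were punched from frozen brain sections and each library pools the punches of several animals, and since the study's methods give a single set of animals per treatment, MDT and LH libraries with the same treatment and replicate number were taken as one pool of animals. A pool holds all cell types of the punch, so more cells of a type and more acetylation per cell cannot be told apart, and the tests below bear on the spread between pools.

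H3K27ac is written by acetyltransferases such as CBP and p300 and marks active promoters and enhancers, and enhancer acetylation differs between cell types far more than promoter acetylation does. The mediodorsal thalamus is built mainly of glutamatergic relay neurons that project to the prefrontal cortex, and in rodents it holds few local inhibitory cells. The lateral hypothalamus is a mixed region with glutamatergic and GABAergic neurons, among them the cells that make orexin or melanin-concentrating hormone, and it takes part in feeding, arousal and reward. The question asked here was how far the acetylated landscapes of the pair differ and whether the difference is the same in Sham and in FT animals. An annotation of Rn5, the genome build of the lists, was not used here, so loci are given by position only, no sequence is shown, and neither the marker genes of each region nor the share of loci at promoters was examined.

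One library stood apart and bears on most results. Sham LH replicate 2 held 32408 peaks, while the other LH libraries held 49887 (Sham replicate 1), 48416 (FT replicate 1) and 47946 (FT replicate 2). The MDT lists held 47740 and 39756 peaks in Sham and 48230 and 50507 in FT. Sham LH replicate 2 was thus below all 7 other lists, and Sham MDT replicate 2 was the next shortest. To make lists comparable, each was cut to its 32408 peaks with the highest maxScore, the peak caller's score, which is comparable only within a library. Sham LH replicate 2 kept its whole list, down to a −log10 p of 4, whereas the other 7 kept 64.2% to 81.5% of theirs and nothing below a −log10 p of 5.34. Even on equal lists its peaks were narrow, with a median width of 1400 bp against 2000 bp in each of the other 3 LH libraries. Read depth is unknown, and the part of depth or enrichment in this gap was not tested, so values without this library are given beside those of all 8.

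No difference in the size of the acetylated landscape was detected between MDT and LH. The mean number of peaks was 46558 ± 4692 in MDT (SD, n = 4) and 44664 ± 8213 in LH (SD, n = 4), a mean log2 difference of 0.08 (MDT minus LH, exact two-sided permutation test, p = 0.714). Peaks covered 75.6 ± 9.69 Mb in MDT and 73.2 ± 17.9 Mb in LH (SD, n = 4 each), a log2 difference of 0.08 (exact permutation p = 0.83). Both differences changed sign without Sham LH replicate 2, to −0.07 (exact permutation p = 0.714) and −0.13 (exact permutation p = 0.343). The smallest p that 4 libraries against 4 can reach is 0.0286. Within treatments the log2 difference in peak number was 0.12 in Sham and 0.03 in FT.

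Median peak width on equal lists was 1800 and 1700 bp in Sham MDT and 2000 bp in both FT MDT libraries, and 2000, 1400, 2000 and 2000 bp in Sham LH replicates 1 and 2 and FT LH replicates 1 and 2. The regions overlapped fully, with means of 1875 ± 150 bp in MDT and 1850 ± 300 bp in LH (SD, n = 4 each, exact permutation p = 1). Within FT the log2 difference in median width was 0. Broad peaks of at least 4 kb were rare, at 0.312% to 0.58% of the list in the 4 MDT libraries and 0.167% to 0.691% in the 4 LH libraries, where the lowest value was again that of Sham LH replicate 2.

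**Figure D1:**
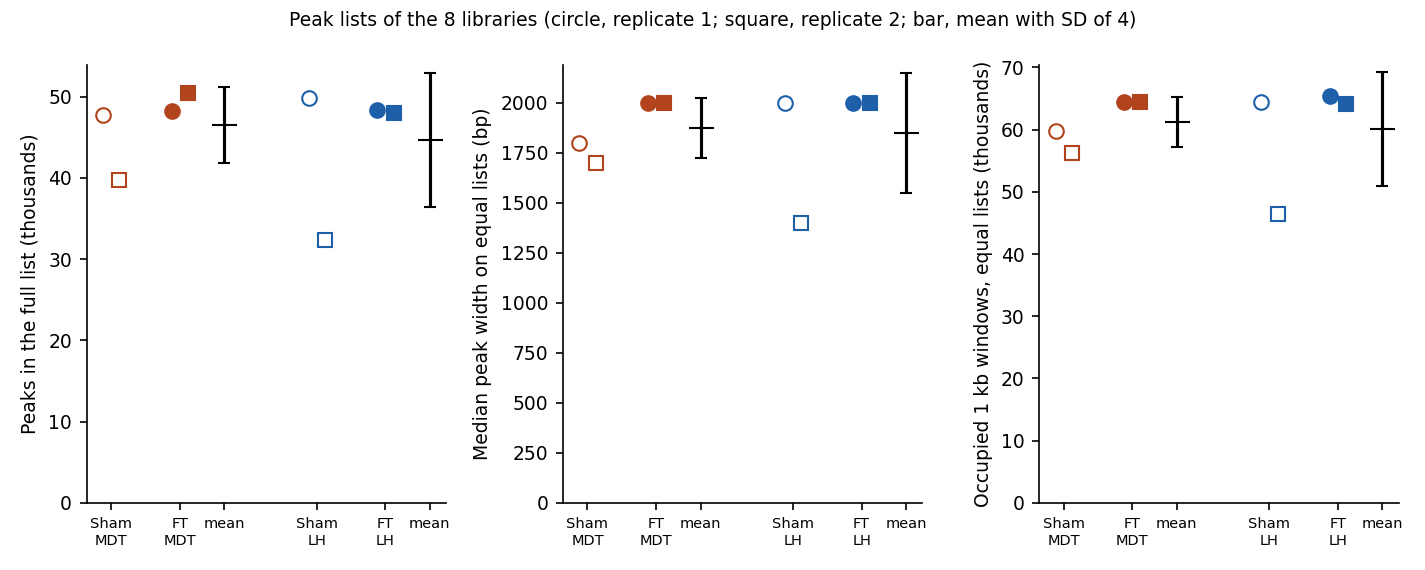
Number of peaks in the full list, median peak width on lists of equal length (bp) and number of occupied 1 kb windows on equal lists, for each of the 8 libraries (open, Sham; filled, FT; circle, replicate 1; square, replicate 2), with the mean and SD of the 4 libraries of each region. Sham LH replicate 2 lies below the other 7 libraries in all 3 panels, with 32408 peaks, 1400 bp and 46434 windows, while the other 3 LH libraries sit between 64067 and 65464 windows.

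The libraries grouped by region rather than by treatment. For this the build was tiled in steps of 1 kb, and a window was called occupied when peaks of the equal list covered at least 50% of its length. The Jaccard index of a pair of libraries is their shared windows divided by the windows held by either. The 6 pairs of MDT libraries had indices of 0.683 to 0.788 with a mean of 0.721, and the 6 LH pairs 0.548 to 0.791 with a mean of 0.668. The 16 pairs of an MDT with an LH library had 0.509 to 0.673 with a mean of 0.625. The mean index within regions exceeded that between regions by 0.0701 (exact one-sided permutation test over 35 splits, p = 0.0286, the smallest these splits can give). With region labels exchanged only within the animal pools, the 8 possible splits cannot give a p below 0.125, the value found (exact one-sided permutation test). The excess was 0.0842 without Sham LH replicate 2 (exact permutation p = 0.0286), 0.0571 without FT MDT replicate 2 (exact permutation p = 0.0571) and 0.0514 with 5 kb windows (exact permutation p = 0.0857), so the call was lost in the last 2 of these.

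In all 8 libraries the most similar library of the series belonged to the same region, which is a check of the labels that uses no marker gene. The 3 LH pairs without Sham LH replicate 2 had indices of 0.784 to 0.791, as high as the FT MDT pair at 0.788. The 3 LH pairs that include it had 0.548 to 0.552, still above its 4 pairs with MDT at 0.509 to 0.538. Its index with Sham MS (medial septum) replicate 1 was 0.548 too, so the check was narrow for this library. Across regions, each MDT library outside its own group was nearest to an LH library, with an index of 0.638 to 0.673. LH libraries other than Sham replicate 2 were instead nearest to FT VTA (ventral tegmental area) replicate 2, at 0.725 to 0.733.

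**Figure D2:**
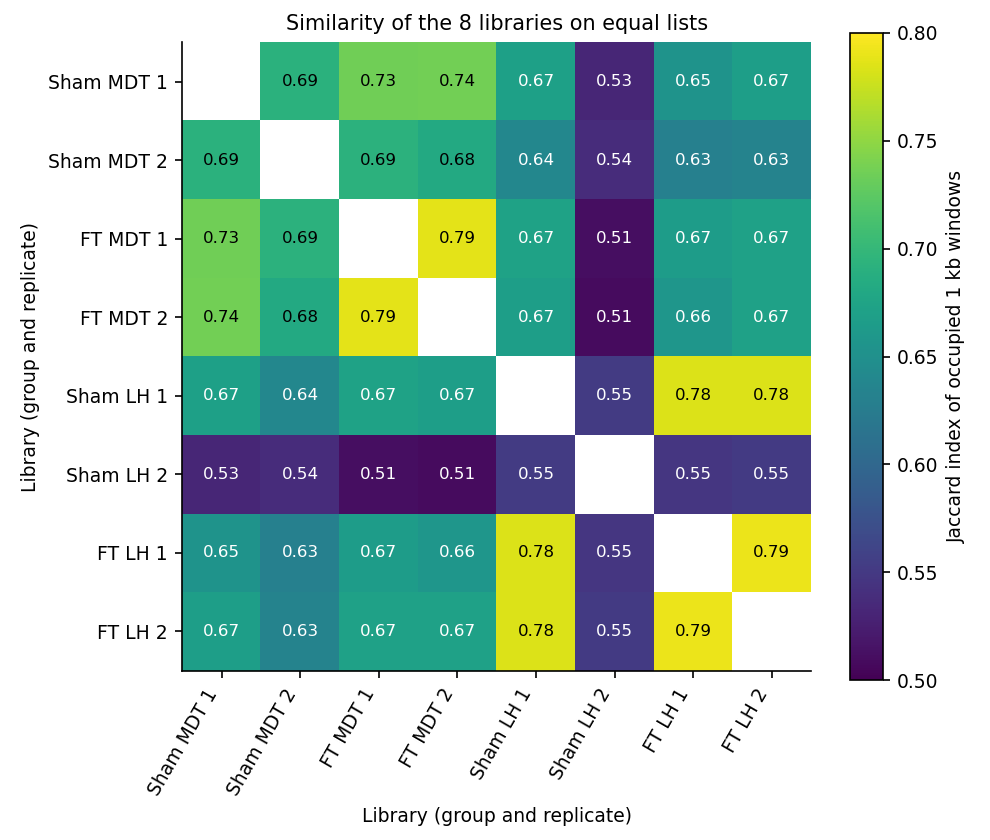
Jaccard index of occupied 1 kb windows for each pair of the 8 libraries on equal lists, as a colour and a number. The MDT block (0.68 to 0.79) and the LH block without Sham replicate 2 (0.78 to 0.79) stand above the MDT with LH pairs, and the row of Sham LH replicate 2 is low throughout (0.51 to 0.55).

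Windows that separated the regions in full were few. Of the 97572 windows occupied in at least 1 of the 8 libraries, 64726 (66.3%) were occupied in at least 1 library of each region, and 32234 (33%) in all 8. MDT libraries alone held 15755 (16.1%) and LH libraries alone 17091 (17.5%). A window was taken to separate the regions when all 4 libraries of one and none of the other occupied it. By this rule 1929 windows (1.98%) belonged to MDT and 652 (0.668%) to LH. The excess on the MDT side rested on 1 library. Without Sham LH replicate 2 the counts were 2054 for MDT and 2245 for LH, and 1593 windows were occupied in the other 3 LH libraries and no MDT library but were empty in Sham LH replicate 2. Leaving out any of the other 7 libraries gave 2116 to 3184 windows for MDT and 784 to 872 for LH, the highest MDT count being that without Sham MDT replicate 2.

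The same rule was then applied within each treatment, where 2 libraries stand against 2. In Sham, 3746 windows (3.84%) were occupied in both MDT and neither LH library, and 2269 (2.33%) the reverse. In FT the counts were 6586 (6.75%) for MDT and 5560 (5.7%) for LH. Separation was therefore more frequent in FT than in Sham in both directions, and the Jaccard index of the 2 libraries of a group was also higher there, at 0.788 for FT MDT and 0.791 for FT LH against 0.692 for Sham MDT and 0.552 for Sham LH. A difference between treatments in these counts cannot be told apart from that difference in replicate similarity.

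Sham and FT share no library, so windows found in one treatment can be looked up in the other. Of the 3746 MDT windows of Sham, 1929 (51.5%) separated the regions the same way in FT, where 6.75% of all windows did, and 34 (0.908%) separated them the opposite way. Of the 2269 LH windows of Sham, 652 (28.7%) did so in FT, against 5.7% of all windows, and 18 (0.793%) were opposite. Counting partial differences too, 74.9% of the MDT windows of Sham were occupied in more MDT than LH libraries in FT, where 17.9% of all windows were, and 4.7% in fewer (19.6% of all windows). Of the LH windows of Sham 58% were occupied in more LH than MDT libraries in FT and 5.95% in fewer.

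From FT to Sham the shares were lower. Of the 6586 MDT windows of FT 29.3% separated the regions in Sham (3.84% of all windows), and of the 5560 LH windows of FT 11.7% did (2.33% of all windows). Occupied in more libraries of the same region in Sham were 65.9% of the MDT windows (24.1% of all windows) and 51.3% of the LH windows (20.3% of all windows). Without Sham LH replicate 2, which leaves 1 Sham LH library, 47.6% of 4311 MDT windows and 20.9% of 10726 LH windows of Sham also separated the regions in FT, and the share of LH windows of FT that did so in Sham was 40.4%.

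**Figure D3:**
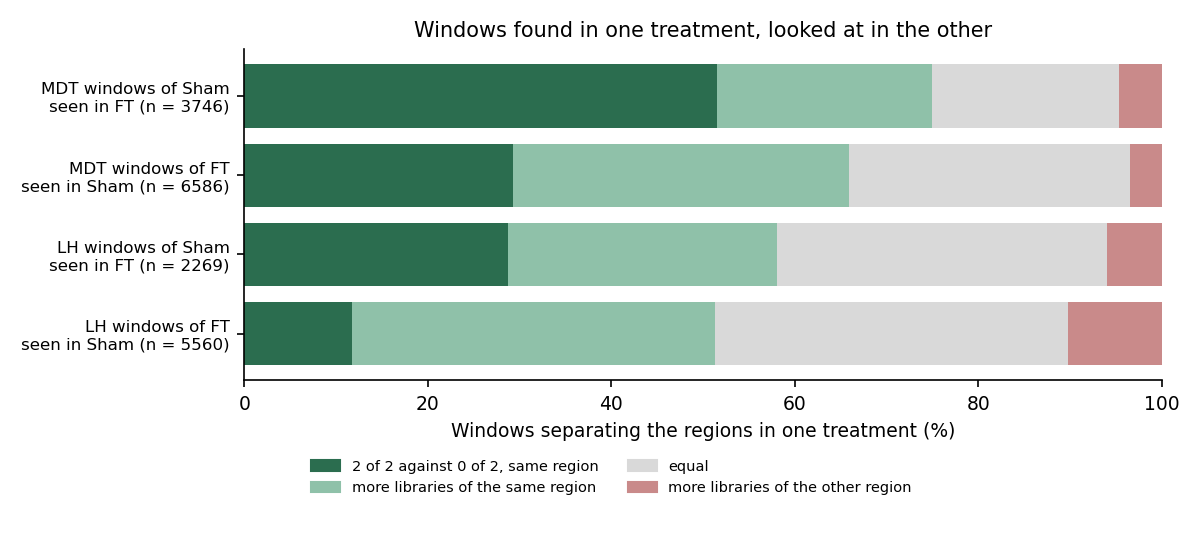
Windows that separated MDT from LH in one treatment (2 of 2 libraries against 0 of 2), split by their state in the other treatment, in percent. Dark green, the same full separation; light green, more libraries of the same region; grey, equal numbers; red, more libraries of the other region. Red makes up 3.42% to 10.2% of the 4 bars, and dark green is longest for the MDT windows of Sham (51.5%) and shortest for the LH windows of FT (11.7%).

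Joined to their neighbours, the MDT windows formed 1476 loci and the LH windows 592. Most loci were 1 window long, 69.8% in MDT and 89.9% in LH, and the longest held 3 windows in MDT and 2 in LH. Loci of the same region differed in kind. Some had no called peak in the other region and others were edges of peaks that both regions held. Still others overlapped a peak in at least 1 full list of the other region but lay beside no window occupied there on equal lists. The share of this last kind was not counted. Of the MDT loci 548 (37.1%) overlapped no peak in any of the 4 full LH lists, and 74 (5.01%) overlapped a peak in all 4. Of the LH loci 68 (11.5%) overlapped no peak in any full MDT list and 164 (27.7%) a peak in all 4. The contrast in loci without a peak did not rest on Sham LH replicate 2. Among windows chosen without it, 38.3% of the MDT and 9.53% of the LH windows had no peak in the full lists used. The shares with a peak in all 4 lists were not recounted without this library, whose full list is no longer than its cut list.

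The loci with the highest scores were edges. Most loci were not: of all loci 15.9% in MDT and 29.1% in LH lay beside a window occupied in the other region. Top loci were named by the best mean rank of their peaks (rank 1 is the highest maxScore of a list). Of these 20 loci 19 lay beside such a window, and 15 overlapped a peak in all 4 full lists of the other region. Their separation depended on the 50% rule: with any overlap of 1 base 1 of the 20 (chr18:36562001-36564000) still separated the regions in 4 against 0 libraries, with 5 kb windows 2 did, and with windows of peak centres 0 did. The top MDT locus, chr7:41507001-41508000, was covered by peaks of rank 608 and 1307 in Sham and 1155 and 897 in FT, of 3700 to 4500 bp. A peak overlapped it in 3 full LH lists too, at a best rank of 1458. The second, chr9:95918001-95919000, had ranks of 1923, 1194, 1520 and 1275 in the same order, and all 4 full LH lists had a peak there with a best rank of 3276.

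The exception in MDT was the tenth locus, chr18:36562001-36564000, which was 2 kb long and lay apart from LH windows. Its peaks ranked 8525 and 5160 in Sham MDT and 5982 and 5347 in FT MDT, whereas a peak was found in only 2 full LH lists, at a best rank of 43844. It was occupied in 10 of 85 libraries of other regions, among them all 4 of VMH (ventromedial hypothalamus) and both of PVN. Another of the 10, chr8:84984001-84985000, was occupied in none of the 85 although all 4 full LH lists had a peak overlapping it, with ranks of 5704 and 4254 in Sham MDT and 5860 and 5914 in FT MDT. The 10 MDT loci were occupied in 0 to 61 of those 85 libraries.

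The 10 LH loci named by the same rule all lay beside MDT windows and overlapped a peak in all 4 full MDT lists. The first, chr14:84248001-84249000, had ranks of 230 and 369 in Sham LH and 313 and 348 in FT LH, and a best rank of 197 in MDT. The second, chr9:14161001-14162000, had 926, 698, 821 and 878, and a best rank of 1141 in MDT. At such loci the regions differed in where a strong peak ended and not in whether there was one. The 10 LH loci were occupied in 5 to 78 of the 85 other libraries.

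Loci without any peak in the other region were therefore also listed, the 5 of each region with the best mean rank, a choice made after their values were seen. In MDT the first was chr5:66964001-66966000, with ranks of 10023 and 11504 in Sham and 9459 and 9134 in FT and peaks of 2000 to 2200 bp in all 4 libraries. The next were chr9:45450001-45451000 (14916, 13998, 8834 and 6680), chr5:30308001-30310000 (12650, 11069, 10969 and 10398), chr6:137828001-137829000 (7947, 15639, 14779 and 7567) and chr16:11823001-11825000 (16322, 10875, 9812 and 9165). These lay in the upper and middle part of the lists of 32408 and were seldom seen elsewhere. Between 0 and 5 of the 85 other libraries occupied them, and for 3 of the 5 both PVN libraries did.

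In LH the first was chr17:90851001-90852000, with ranks of 9475 and 16181 in Sham and 8943 and 9195 in FT, and its peak was 1400 bp wide in Sham LH replicate 2 and 2500 bp wide in the other 3. It was occupied in 73 of the 85 other libraries, from 21 regions, and the other regions with no library that occupied it were PVN and dorDG (dorsal dentate gyrus). The others were chr1:287698001-287700000 (13161, 8850, 16624 and 13225), chr6:8812001-8813000 (19850, 10959, 17808 and 17856), chr6:121413001-121415000 (18313, 16292, 17502 and 16067) and chrX:34931001-34933000 (20125, 11966, 20644 and 17818). They were occupied in 34 to 56 of the 85 other libraries. All 5 were occupied in every library of LS (lateral septum), NaCcore (nucleus accumbens core), VMH and arc (arcuate nucleus).

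Separating windows of both regions occurred on every chromosome of the lists, and whether they cluster was not tested. As a reference for single bins, MDT windows made up 1.98% and LH windows 0.668% of all occupied windows. Of 2598 bins of 1 Mb with an occupied window, 859 held an MDT window and 461 an LH window. The most in a bin were 11 for MDT, at 51 to 52 Mb of chromosome 15 among 167 occupied windows, followed by 10 of 88 at 72 to 73 Mb of chromosome 11. Bins with 9 MDT windows included 233 to 234 Mb of chromosome 1, 4 to 5 Mb of chromosome 4 and 162 to 163 Mb of chromosome 5. For LH the most were 6, at 8 to 9 Mb of chromosome 6 among 51 occupied windows and at 84 to 85 Mb of chromosome 16 among 21. Bins with 5 LH windows were 57 to 58 Mb of chromosome 4, 50 to 51 Mb of chromosome 12 and 114 to 115 Mb of chromosome X. By chromosome, MDT windows made up 0.919% (X) to 2.75% (18) of the occupied windows and LH windows 0.402% (19) to 1.07% (16), and MDT windows outnumbered LH windows on each of them in the full set of 8 libraries.

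The other 23 regions played no part in choosing the windows, and MDT and LH windows differed in how often they recurred there. One of the 86 other libraries, from Sham HB (habenula), occupied 0.104% of the MDT and 0.46% of the LH windows and was left out of the counts, which leaves 85. An MDT window was occupied in a median of 6 of these libraries and an LH window in 29. No other library held 396 of the 1929 MDT windows (20.5%), whereas each of the 652 LH windows was held by at least 1. At least 50% of the 85 libraries held 6.38% of the MDT and 29.1% of the LH windows. Among windows chosen without Sham LH replicate 2 the medians were 7 and 22, and 20% of the MDT and 0.223% of the LH windows occurred in no other library.

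LH windows were most often occupied in BNST (bed nucleus of the stria terminalis, a median of 65.8% over its 4 libraries), VTA (64.3%), Snt (nucleus of the solitary tract, 58.7%) and VMH (58%). MDT windows were occupied there at 6.64%, 9.51%, 11.8% and 9.64%. The highest shares of MDT windows were in PVN (34.7% over 2 libraries), which the study's list of regions gives as the paraventricular nucleus of the thalamus, in the FT library of HB (30.7%, where LH windows were at 45.1%), and in InsularCortex (29.5%) and CGC (cingulate cortex, 26.2%). The shares of LH windows did not follow the larger divisions of the brain. They were lowest in PAG (periaqueductal grey, 21.7%) and LC (locus coeruleus, 22.7%), which lie in the brainstem as Snt does. This order changed for windows chosen without Sham LH replicate 2. The lowest shares were then in NaCshell (nucleus accumbens shell, 17.8%) and PLC (prelimbic cortex, 19.2%), with PAG at 19.4% and LC at 21.4%.

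In 76 of the 85 libraries the share of LH windows was higher than that of MDT windows. In 3 regions, PVN, InsularCortex and CGC, the median share of MDT windows was the higher one, by 5.31, 2.64 and 0.953 percentage points in the median library. The full set of 97572 windows includes those occupied in all 8 libraries, which separating windows leave out, so it is an unlike reference. In it 35.2% to 63.3% of windows were occupied in the 23 regions. MDT windows were below that level in all 23 regions, and LH windows were above it in BNST, VTA and VMH. With windows chosen without Sham LH replicate 2, LH windows were above it in BNST alone, the LH share was higher in 70 of 85 libraries and the order was led by Snt (58.6%), BNST (56.2%) and VTA (54.7%).

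**Figure D4:**
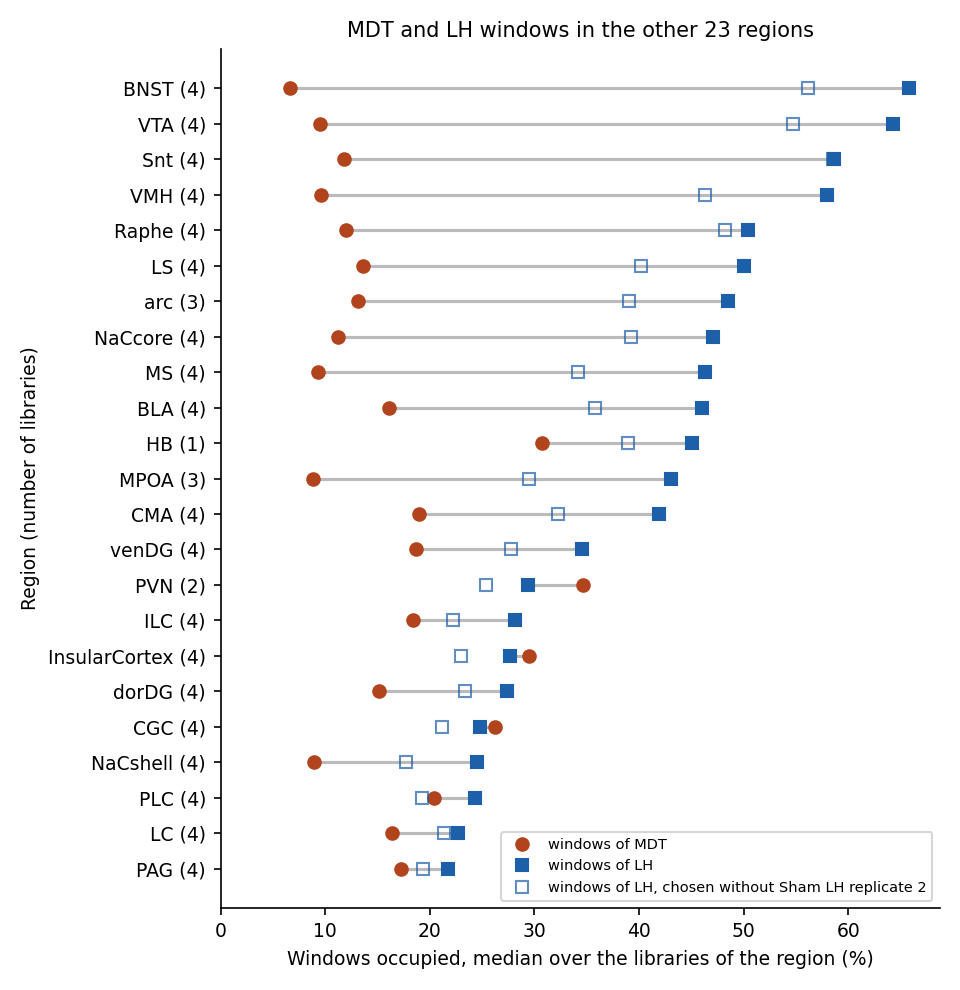
Share of MDT windows (circles) and LH windows (filled squares) occupied in the other 23 regions, as the median in percent over the libraries of each region on lists of equal length (a library with fewer peaks is whole), with the LH windows chosen without Sham LH replicate 2 as open squares. LH windows reach 65.8% in BNST, where MDT windows are at 6.64%, and MDT windows are highest in PVN at 34.7%.

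Loci that had no peak in the other region were also looked up. In 20 of the 23 regions the LH share minus the MDT share was larger for these loci than for windows, the exceptions being PAG, Raphe and Snt. The 20 include PVN, where this gap was negative in both sets (−3.68 percentage points for loci and −5.31 for windows). The 68 such LH loci were occupied most in VMH (a median of 83.8% over 4 libraries, range 73.5% to 88.2%), arc (79.4% in each of 3), BNST (74.3%) and MPOA (medial preoptic area, 72.1%). The 548 such MDT loci were occupied at 1.37%, 3.65%, 2.19% and 3.1% in the same regions. PVN again held most of the MDT loci, with 20.8% and 27.7% in its 2 libraries, followed by PAG (periaqueductal grey) at 12.9%. PVN was the one region where the median share of MDT loci (24.3%) was above that of LH loci (20.6%). In PAG LH loci were at 16.9%, and in InsularCortex and CGC, where MDT windows had the higher share, LH loci were at 36% and 30.1% against 12.2% and 9.85% for MDT loci. A group of 225 of the 548 MDT loci (41.1%) was occupied in no other library, and none of the 68 LH loci was.

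Set against the 21 regions with 4 libraries, on lists cut to 19378 peaks, MDT and LH were among the less separated pairs. They differed at 1533 windows, 1051 of MDT and 482 of LH, the fewest of the 20 pairs that include MDT, whose median was 5249. Next for MDT came MS (medial septum) with 1849 windows and VTA with 2288. Without Sham LH replicate 2 the pair had 2447 windows, the third from fewest for MDT. The other pairs kept 4 libraries per region, and the rule is easier to meet with fewer libraries, so this order compares unlike counts. LH differed at fewer windows from 4 regions, MS (771), VTA (790), Raphe (1256) and BNST (1421). A short or narrow list gives few windows that all 4 libraries hold, so these counts depend on the weakest library of a pair.

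Places acetylated in both regions also differed in strength. Overlapping peaks of the 8 equal lists formed 49409 elements, of which 20827 had a peak in every list. The best rank of an element in each list was turned into a normal score, which is higher for a stronger peak and on which a difference of 1 is 1 SD of the list. By limma with Benjamini-Hochberg adjustment over the 20827 elements (threshold 0.05), 835 elements (4.01%) ranked higher in MDT and 620 (2.98%) in LH. With the animal pool as a block the counts were 542 and 333, and on full lists 200 and 62 of 24312. Leaving out 1 library gave 322 (without FT MDT replicate 1) to 1298 (without Sham LH replicate 2) for MDT and 110 (without FT LH replicate 1) to 863 (without Sham MDT replicate 2) for LH. The values of the 4 and 4 libraries did not overlap in 1842 elements (8.84%) in favour of MDT and 2003 (9.62%) in favour of LH. The median called difference was 0.64 for MDT and −0.58 for LH, against a median size of 0.18 over all shared elements.

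The element with the lowest p in favour of MDT was chr19:9785434-9788441. Its ranks were 9917 and 8084 in Sham MDT and 6001 and 6615 in FT MDT, but 31144 and 29223 in Sham LH and 28444 and 28566 in FT LH. All 4 MDT libraries were far above all 4 LH libraries, and the normal score differed by 2.08 ± 0.15 (SE, limma adjusted p = 0.00152). The second, chr8:98268807-98271410, had ranks of 3743 and 2411 in Sham MDT, 3536 and 3590 in FT MDT, 16886 and 20769 in Sham LH and 23144 and 20291 in FT LH, a difference of 1.6 ± 0.12 (SE, limma adjusted p = 0.00152). Neither was particular to MDT by presence: they had a peak in 62 and 72 of the 85 other libraries, with the best median rank in dorDG (1878.5) and PVN (129.5).

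In favour of LH the first was chr17:10436802-10439318. It ranked 10950 and 14833 in Sham LH and 12149 and 10464 in FT LH, and 30423 and 29351 in Sham MDT and 29644 and 31223 in FT MDT. The groups lay far apart, and the normal score was lower in MDT by a difference of −1.83 ± 0.13 (SE, limma adjusted p = 0.00152). The second, chr10:57414521-57417012, ranked 8786, 7682, 9726 and 10721 in LH and 22161, 23241, 23630 and 20596 in MDT, each in the order Sham replicates 1 and 2 and FT replicates 1 and 2, a difference of −1.07 ± 0.1 (SE, limma adjusted p = 0.00284). Among other regions these elements ranked best in VMH (a median of 4833.5) and arc (2400), the hypothalamic neighbours of LH. The remaining named LH elements, given below, ranked best outside the hypothalamus, in Snt (7079), BNST (16554) and PAG (1991.5).

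The remaining named elements were chr20:8577448-8579447, chr14:38965545-38968412 and chr15:51242914-51245127 in favour of MDT, with differences of 1.25, 1.56 and 1.19, and chr3:13237542-13239700, chr1:4228720-4230905 and chr20:31344476-31346786 in favour of LH, with −0.8, −0.84 and −1.17. The chromosome 15 element ranked 5510, 3482, 2927 and 2910 in MDT and 15327, 14845, 15986 and 17019 in LH, and it lies in the 1 Mb bin with the most MDT windows. All 10 named elements stayed past the threshold with the pool as a block (adjusted p of at most 0.029) and when any 1 library was left out (adjusted p of at most 0.0167). On full lists chr3:13237542-13239700 (limma adjusted p = 0.0675) and chr1:4228720-4230905 (limma adjusted p = 0.214) did not pass it, nor did chr20:31344476-31346786 when ranked by tag count (limma adjusted p = 0.0937).

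No difference between Sham and FT in the rank contrast was detected with 2 libraries per group. No element passed the threshold for a region by treatment interaction (limma, 0 of 20827, 0%, smallest adjusted p = 0.718), and 1116 elements (5.36%) had an unadjusted p under 0.05. Across the 20827 elements the MDT minus LH difference in Sham and that in FT had a Pearson r of 0.522, as a description, since elements share libraries and are not independent. Of the 4001 elements whose ranks favoured MDT without overlap in Sham, 61.7% did so in FT, where 28.2% of all elements did, and 8.97% favoured LH. Of the 4507 elements favouring LH in Sham, 59.4% did so in FT, against 34.6% of all elements, and 7.08% favoured MDT.

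**Figure D5:**
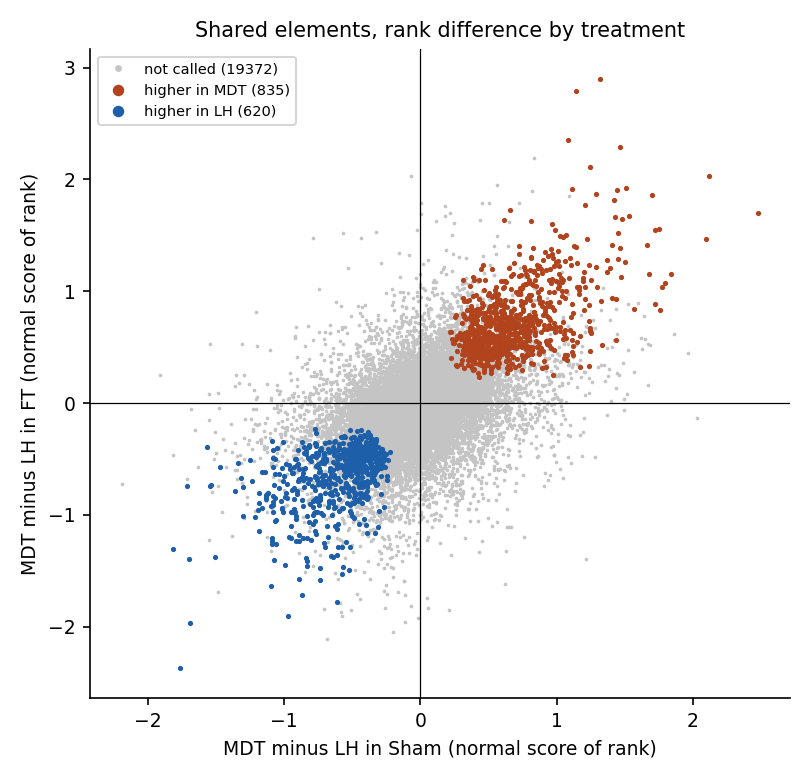
MDT minus LH difference in the normal score of rank for each of the 20827 shared elements, in Sham (horizontal) and in FT (vertical), each the difference of the means of 2 libraries per region. Coloured points are the 835 elements called higher in MDT and the 620 called higher in LH by limma over all 8 libraries, which lie in the quadrants where both treatments point the same way, as a call over both treatments favours.

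Width of shared elements differed less clearly than rank. No element differed in covered bases by limma at an adjusted p under 0.05 (0% in either direction, smallest adjusted p = 0.118), with 878 elements (4.22%) at an unadjusted p under 0.05, and with the pool as a block none passed either (1793 at an unadjusted p under 0.05). Widths did not overlap between the regions in 227 elements (1.09%) wider in MDT and 191 (0.917%) wider in LH. The narrow peaks of Sham LH replicate 2 entered every such comparison. With log2 widths centred on the median of each library 28 elements were called wider in MDT and 12 wider in LH, and without Sham LH replicate 2 the counts were 42 and 147 of 22758. No region by treatment interaction in width passed the threshold (0%), and 112 elements had an unadjusted p under 0.05. The direction of the width difference matched between treatments in 49% of elements. Widths move in steps of 100 bp, so a difference can be 0 and have no direction, and 49% is not a measure of disagreement. The r of the Sham and FT width differences was 0.378, again as a description. The median difference over all elements was 0.033 in Sham and −0.035 in FT on the log2 scale. Widths that did not overlap in Sham were larger in MDT in 766 elements (3.68%) and in LH in 1106 (5.31%). In FT they were larger in MDT in 1997 (9.59%) and in LH in 5668 (27.2%). Of the 766 elements 56.4% were wider in MDT without overlap in FT too, and 2.87% wider in LH. Of the 1106 elements 48.4% were wider in LH in FT too, and 1.99% wider in MDT. From FT to Sham the shares were 21.6% for MDT and 9.44% for LH.

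Elements that ranked higher in a region tended to be wider there too. Of the 835 elements called higher in MDT by rank, 793 (95%) had a larger mean width in MDT, and of the 620 called higher in LH 587 (94.7%) had a larger mean width in LH. Over all shared elements the signs of the rank and the width difference matched in 74.7%. The median width difference of the called elements was small, at 0.19 for MDT and −0.17 for LH on the log2 scale. Rank and width are read from the same peaks, so their relation is a description of the lists.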

How the data were processed

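Libraries were grouped by the region and treatment labels. The authors aligned reads to Rn5 (BWA per the submitters' processing notes, version not given in the sources used here) and ran the peak caller DFilter library by library, without pooling replicates. DFilter finds enriched stretches against an input sample, and the inputs pooled Sham and FT DNA of a region. Each deposited list gives peak positions, the peak's maximum score and a normalised tag count (both a score with no fixed range), the authors' −log10 p-value (4 to 200) and a false discovery rate in percent (0 throughout). No read counts are given, so depth is unknown and no counting interval was computed. Starts were read as counting from 0 and are printed counting from 1.

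The analysis used Python 3.11.15, SciPy 1.17.1 and limma 3.58.1 in R 4.3.3, checked on simulated data. Ranks and log2 widths of shared elements were fitted with region as the only term, and interactions with region and treatment. Single values were tested by exact permutation over 70 assignments. The members, lists and tests were chosen with earlier results of these data known. Named are the 10 loci per region with the best mean rank, the 5 elements per direction with the lowest limma p among called elements whose groups do not overlap (none for width), and the 5 bins of 1 Mb with the most windows per direction. MDT and LH libraries of the same treatment and number were taken to share animals, since the study's methods give a single set of animals per treatment, so the number pairs them. The difference between replicates correlated over windows between MDT and LH at 0.0489 in Sham and 0.0261 in FT. No 2 of the 8 lists were identical. Alternatives were other list lengths, window rules, rankings and thresholds, the pairing and each library left out.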

Additional observations from a re-analysis of the deposited data

Results flagged for a closer look

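Sham LH replicate 2 lay outside the spread of the other 3 LH libraries in 5 of 6 measures by Dixon's test, which was also run on the same 6 measures in MDT. Chance alone gives such a call in about 1 of 20 groups, and the measures share the same lists. It held 32408 peaks (others 47946 to 49887), covered 46.4 Mb (80.2 to 83.1 Mb), had a median peak width of 1400 bp on equal lists (2000 bp in each other) and occupied 46434 windows (64067 to 65464). Its mean Jaccard index with the other LH libraries was 0.55, against 0.707 to 0.709 for the others. No MDT library stood apart in this way. What sets the library apart was not tested.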

How the results depend on the processing

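Read depth is not given by the lists, so its part in these results was not tested. With 2 libraries per region and treatment, no permutation test within a treatment can pass 0.05, and Sham LH replicate 2 decides several counts. The mean log2 differences ranged, with 1 library left out, from −0.072 (without Sham LH replicate 2) to 0.15 (without Sham MDT replicate 2) for peak number, from −0.13 to 0.16 for covered bases and from −0.097 to 0.078 for median width, with the same 2 libraries at the ends, and none passed 0.05. Median width also changed sign on the best 5000 peaks (−0.014) and without either FT MDT library (−0.00018). The excess of the Jaccard index within regions was 0.0701 with region labels exchanged within animal pools (replicate block, exact permutation p = 0.125, the smallest possible), 0.0514 with 5 kb windows (exact permutation p = 0.0857) and 0.0571 (without FT MDT replicate 2, exact permutation p = 0.0571) to 0.0842 (without Sham LH replicate 2). Windows of MDT and LH numbered 493 and 245 on the best 10000 peaks, 226 and 124 on the best 5000, 39 and 7 at 5 kb, and 3214 and 1137 with an overlap of 1 base. Peak centres gave 969 for MDT and 437 for LH. Leaving out 1 library gave 2054 to 3184 for MDT and 784 to 2245 for LH. Full lists, equal covered length, ranking by tag count and a stricter p-value kept both counts within 1.5 times. The shares of Sham windows found in FT and of FT windows found in Sham were 53.3% and 22% for MDT and 24.5% and 8.78% for LH on full lists, 48.1%, 11.6%, 12.3% and 1.99% at 5 kb, and 47.6%, 31.2%, 20.9% and 40.4% without Sham LH replicate 2. The count for the MDT and LH pair on the shorter lists was 2447 without that library. Elements ranked higher in MDT and LH numbered 542 and 333 with the animal pool as a replicate block, 200 and 62 on full lists, 121 and 96 on the best 10000 peaks, 1356 and 1127 over windows occupied in all 8 libraries, and 1268 and 1041 when ranked by tag count. With 1 library left out the counts ran from 322 to 1298 for MDT and from 110 to 863 for LH. Calls for MDT fell to 438 without Sham MDT replicate 1, 322 and 348 without FT MDT replicates 1 and 2, and 371 and 415 without FT LH replicates 1 and 2. Calls for LH fell to 306, 168, 223, 110 and 158 in the same order and to 304 without Sham LH replicate 1. Element width gave 1 call in LH on the best 10000 peaks, 28 and 12 calls with centred widths, and 0 to 42 (MDT) and 0 to 147 (LH) with 1 library left out, the highest without Sham LH replicate 2. No interaction was called on full lists or with the replicate block. The replicate block left window counts as they are by construction and, besides the Jaccard test and the rank counts, changed no call among the results it was run for. Of 107 alternative values of the 10 named elements 104 kept their call. The 3 lost were chr3:13237542-13239700 (limma adjusted p = 0.0675) and chr1:4228720-4230905 (limma adjusted p = 0.214) on full lists and chr20:31344476-31346786 ranked by tag count (limma adjusted p = 0.0937). Of 180 alternative values of the 20 named loci 115 moved little, 63 moved and 2 reversed, the LH loci at chr9:14161001-14162000 and on chromosome 10 from 57998001, where at 5 kb the share of MDT libraries exceeded that of LH by 0.25 and 0.25. The causes of these changes were not tested. Of the 20 loci 0 kept 4 against 0 by peak centres, 1 by an overlap of 1 base, 2 at 5 kb, 12 on the best 5000 peaks and 19 or 20 elsewhere. Recounts without Sham LH replicate 2 in the other regions, the loci without a peak in the other region, and the block for the Jaccard index and the interactions were chosen after seeing the data.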
